A study of Caenorhabditis elegans with 3 samples.

Results

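The regions described here are the strongest EGL-27 sites on the autosomes that lie between protein-coding genes and away from the starts of those genes. They come from a chromatin immunoprecipitation sequencing (ChIP-seq) list that the authors made from 3 biological replicates together, and there are 305 of them among the 30000 regions of that list. The list was ordered by its deposited signal value and the 1500 highest regions were kept. A region was a member when its summit, the position of highest enrichment, lay on 1 of the 5 autosomes, outside every protein-coding gene body and outside every promoter window. Promoter windows covered the 1000 bp before and the 200 bp after each protein-coding start. Summits within 20 kb of egl-27 were left out, because the transgene carries copies of that locus. Of the 1500 regions, 383 were on X, 26 were near egl-27, 495 lay in autosomal promoter windows, 257 in introns and 34 in exons, and the remaining 305 are the members.

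All samples were 1 group: whole L1 larvae, the first larval stage, of Caenorhabditis elegans strain OP177, both sexes pooled, with the age given as unknown. The genotype is unc-119(ed3) III; wgIs177, where the transgene carries EGL-27 with a GFP-FLAG tag at its C-terminus, and the antibody is given in the labels as egl-27. The strain is 1 transgenic line, and every cell type of the larva is mixed in each library. There was no second genotype, stage or treatment and 1 control alignment served all replicates, so the comparisons are between classes of region and between replicates.

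EGL-27 is related to the MTA proteins, subunits of the NuRD complex, which combines chromatin remodelling with histone deacetylation. In C. elegans the gene is known for roles in embryonic patterning, cell migration and cell fate, and in stress resistance. Intergenic sites away from a promoter can hold enhancers, starts of unannotated or noncoding transcripts, or sequence with no regulatory role, and ChIP-seq does not tell these apart. GA repeats, runs of alternating G and A, are the binding sites of GAGA factor in Drosophila.

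The sequences under the summits of the 6 highest members are shown because they include both members with a GA repeat and members without one. Each covers the bases within 50 bp of the summit on the ce11 plus strand, from the RefSeq WBcel235 assembly. Capitals mark runs of at least 6 alternating G and A (or C and T) bases and the GC box CCGCCC on either strand.

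D001, upstream of ogt-1, chrIII:7155783-7155883: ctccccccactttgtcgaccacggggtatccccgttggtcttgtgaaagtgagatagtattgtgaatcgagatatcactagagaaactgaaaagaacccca
D002, upstream of egl-9, chrV:10466762-10466862: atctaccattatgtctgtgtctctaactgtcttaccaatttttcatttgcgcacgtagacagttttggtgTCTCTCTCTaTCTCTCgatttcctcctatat
D003, near ins-13, chrII:5543509-5543609: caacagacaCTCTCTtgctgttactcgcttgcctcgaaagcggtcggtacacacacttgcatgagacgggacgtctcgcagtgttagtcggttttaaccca
D004, upstream of mtm-3, chrIII:3801513-3801613: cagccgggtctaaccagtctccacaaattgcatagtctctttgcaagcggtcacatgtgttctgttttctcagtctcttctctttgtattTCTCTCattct
D005, upstream of cmd-1, chrV:1151491-1151591: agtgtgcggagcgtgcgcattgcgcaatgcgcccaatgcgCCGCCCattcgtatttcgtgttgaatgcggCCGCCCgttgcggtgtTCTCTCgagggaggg
D006, upstream of sup-26, chrIII:4282136-4282236: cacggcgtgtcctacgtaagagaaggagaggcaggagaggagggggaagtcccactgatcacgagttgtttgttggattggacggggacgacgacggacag

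Members with long GA or CT runs are shown next, centred on the run, with capitals for runs of at least 6 bases. D291 lies 4459 bp upstream of Y42G9A.3, D054 lies 1133 bp upstream of vhp-1, which encodes a MAP kinase phosphatase, and D053 lies 2768 bp upstream of T04C4.3. Their longest runs within 100 bp of the summit were 31, 30 and 24 bases.

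D291, chrIII:6141736-6141836: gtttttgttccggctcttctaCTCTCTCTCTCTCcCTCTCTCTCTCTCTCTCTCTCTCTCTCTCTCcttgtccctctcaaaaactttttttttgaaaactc
D054, chrII:5322008-5322108: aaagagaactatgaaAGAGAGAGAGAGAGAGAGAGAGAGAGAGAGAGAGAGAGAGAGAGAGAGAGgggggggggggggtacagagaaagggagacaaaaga
D053, chrIV:2219486-2219586: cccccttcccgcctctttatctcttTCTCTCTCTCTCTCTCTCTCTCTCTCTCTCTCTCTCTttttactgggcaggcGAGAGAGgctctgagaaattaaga

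The highest distal intergenic region, D001, lay 2036 bp from the start of ogt-1, the gene for O-GlcNAc transferase, on its upstream side, and stood second in the whole pooled list. Its pooled signal was 159.2, on a scale the authors do not state, and its signal was 41.4, 69.9 and 53.9 in replicates 1, 2 and 3. Whether the replicate lists share a scale is not stated, so replicates are compared by rank within their own lists. These values ranked 1, 1 and 3 within the replicates' own lists, so it was near the top of each. D002 (pooled signal 101.8) lay 1705 bp upstream of egl-9, whose product is the prolyl hydroxylase that marks HIF-1 for destruction, inside the ncRNA genes F22E12.9 and F22E12.10. Its replicate signals were 37.6, 27.4 and 33.8, with ranks of 5, 52 and 13. Both regions were near the top in all 3 replicates.

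D003 lay 1305 bp downstream of the start of the insulin-like peptide gene ins-13 and within 500 bp of sls-2.2, a gene for a spliced leader RNA. Its pooled signal was 77.4, and replicates 1, 2 and 3 gave 34.5, 35.7 and 18.8. D004 lay 1096 bp upstream of mtm-3, a myotubularin-family phosphatase gene, with 77.3 pooled and 17.7, 30.6 and 31.1 in the replicates. D003 ranked 9, 22 and 143 and D004 ranked 74, 35 and 22, so D003 stood lowest in replicate 3 and D004 in replicate 1. D005 lay 4730 bp upstream of cmd-1, the calmodulin gene, inside the lincRNA gene linc-128, with 72.3 pooled and 19.3, 26.3 and 30.2 in the replicates. D006 lay 1962 bp upstream of sup-26, which encodes an RNA-binding protein, with 68.02 pooled and 14.4, 27.6 and 33.5 in the replicates. Both ranked best in replicate 3, at 27 and 14, and D006 ranked 171 in replicate 1.

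The next 6 members had pooled signals from 67.4 down to 60.05. D007, between F54F12.1 and Y39E4B.6, gave 18.5, 30.5 and 20.5 in replicates 1, 2 and 3, at 7199 bp from the nearer start. D008, 8275 bp upstream of aakg-1, which encodes a gamma subunit of the energy sensor AMP-activated kinase, gave 23.01, 13.1 and 22.8. D008 ranked 29 in replicate 1 and 610 in replicate 2, the widest split of ranks among the 12 highest. D009, 2560 bp upstream of the nuclear hormone receptor gene nhr-88, gave 12.3, 20.3 and 32.2. D010, 2393 bp upstream of din-1, which encodes a corepressor partner of the hormone receptor DAF-12, gave 16.6, 26.2 and 25.4. D009 ranked 297, 152 and 18 and D010 ranked 99, 64 and 54, at pooled signals of 64.5 each. D011, 1042 bp upstream of the protein phosphatase gene ppm-2, gave 19.2, 21.9 and 21.3. D012, 9636 bp downstream of the start of T23E1.1 in a gap between converging genes, gave 14.5, 21.4 and 24.96. All 12 were in the 1500 highest regions of every replicate and in the authors' thresholded list.

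**Figure D1:**
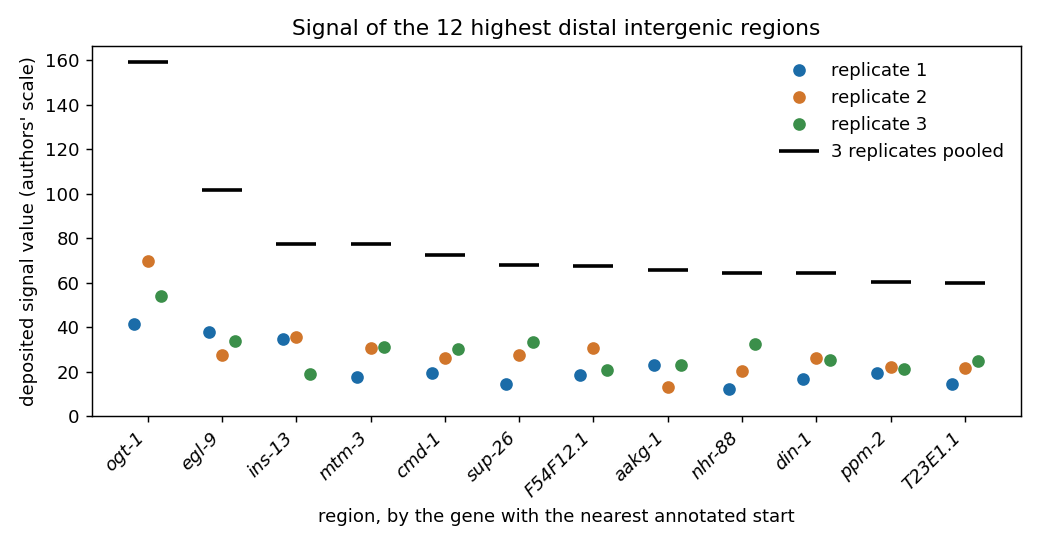
Deposited signal value (authors' scale) of the 12 highest distal intergenic regions in each replicate (points) and in the list made from the 3 replicates together (bars); each region is named by the gene with the nearest annotated start. Among these 12, the region upstream of ogt-1 is the highest in the pooled list, at 159.2, and in every replicate; heights can be compared within a list, since no common scale is stated.

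The cut at 1500 fell where neighbouring signal values were close together. Over the 305 members the pooled signal ran from 18.7 to 159.2 with a median of 24.3, and the values that chose them are given without a test. The last member, near cah-1, had a signal of 18.731 and stood at 1499, and the first distal intergenic region outside, near M04B2.6, had 18.710 and stood at 1502. The median signal was 25.3 in the 495 promoter regions and 23.8 in the 257 intronic ones at the same cut. The authors' thresholded list, made with the irreproducible discovery rate (IDR), held 104 members (34.1%), where it held 1.75% of all pooled regions. That list takes the highest pooled signals, so this share follows from the rule.

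The replicates supported the members to different extents. The 1500 highest regions of replicate 1 held the summits of 139 members (45.6%, exact binomial 95% interval 39.9 to 51.3), those of replicate 2 held 148 (48.5%, 42.8 to 54.3) and those of replicate 3 held 186 (61.0%, 55.3 to 66.5). The shares over all 30000 pooled regions were 4.71%, 5.09% and 4.87%, and since the pooled signal was made from the same reads these shares follow in part from the rule. All 3 lists held 44 members (14.4%), 2 of them held 104 (34.1%), 1 held 133 (43.6%) and none held 24 (7.87%). For promoter regions the same shares were 20.4%, 28.5%, 39.2% and 11.9%, and for intronic regions 17.9%, 26.5%, 45.5% and 10.1%. Regions of any height in replicates 1, 2 and 3 held 260, 280 and 275 members (85.2%, 91.8% and 90.2%). The shares were 88.5%, 90.7% and 91.5% of promoter regions and 42.1%, 53.0% and 22.7% of weaker distal intergenic ones. Shares at any height can depend on list length. The list of replicate 3 had 13516 regions, and those of replicates 1 and 2 had 30000 each. The members in no replicate's 1500 highest regions included D151 (24.3 pooled), upstream of the phosphodiesterase gene pde-2, with 5.78, 7.49 and 4.26 in replicates 1, 2 and 3. D178 (22.7), upstream of T23G4.127, gave 6.41, 7.63 and 6.78, and D184 (22.4), upstream of the cell division gene zyg-11, gave 5.84, 9.81 and 5.62. The best rank of any of these 3 in a replicate was 1531.

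The share found in the replicates declined down the ranking. Among the 61 highest members, 80.3%, 85.2% and 91.8% were in the 1500 highest regions of replicates 1, 2 and 3, and among the 61 lowest 19.7%, 27.9% and 44.3%. Where a member had a region in a replicate, the replicate's summit was a median of 35.5, 26.5 and 29 bp from the pooled one in replicates 1, 2 and 3. Signal across members was weakly related between replicates, with Spearman rho of 0.20 between 1 and 2, 0.19 between 1 and 3 and 0.20 between 2 and 3, over at most 250 members. These are descriptions across regions that share libraries and were chosen by their joint signal.

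GA repeats were the commonest of the 5 motifs at distal intergenic summits, and were more frequent there than at promoter summits of the same strength. The motif GAGAGA, searched on both strands (as GAGAGA or TCTCTC) within 100 bp of the summit, was present in 192 of 305 members (62.95%, 57.3 to 68.4). It was present in 223 of 495 promoter regions (45.1%), a difference of 17.9 percentage points (95% Newcombe interval 10.8 to 24.7; two-sided Fisher's exact p = 9.91e-07, adjusted p = 1.39e-05 by Benjamini-Hochberg over 14 tests). In intronic regions it was present in 142 of 257 (55.3%), and that difference of 7.70 points did not pass (interval -0.44 to 15.7, adjusted Fisher's exact p = 0.266). The motifs and the members were chosen with earlier results of these data known, which the adjustment over 14 tests does not cover. A smaller set kept the 67 distal and 129 promoter regions in the 1500 highest regions of both replicates 1 and 2. There the difference from promoters was 15.4 points and did not pass (adjusted Fisher's exact p = 0.586). That set was still chosen from the list made with all 3 replicates, so it does not show the result without replicate 3. Within 50 bp of the summit the difference from introns was 12.6 points and passed (adjusted Fisher's exact p = 0.0125). Members that share a gap or overlap are not independent, which these tests do not take into account: the regions of 14 members overlapped another member's, and 54 members had another within 2 kb. With 1 region kept per 2 kb, the difference from promoters was 17.5 points (277 distal and 479 promoter regions, adjusted Fisher's exact p = 5.42e-05). Members farther apart in a gap stayed in that set.

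The repeat was less frequent in weaker regions and in intergenic sequence at large, a comparison given without a test. It lay in 18% of all pooled regions, in 20.1% of the 5043 weaker autosomal distal intergenic regions and in 10.5% of 96333 windows of the same length laid end to end over the autosomal sequence where a member could lie. GC content differed between these sets as well, with a median of 45.8% in members, 43.8% in promoter regions, 46.3% in intronic regions, 36.8% in weaker distal intergenic regions and 33.8% in the windows, and its part in the shares was not tested. By distance, 47.2% of members held the repeat in the 100 bp around the summit, 33.4% and 35.4% in the neighbouring 100-bp bins on either side, and 4.92% and 6.56% at 400 bp. The repeats were concentrated at the summits. In windows of the same length 1000 bp to either side, 11.8% and 15.1% of members held it, near the 10.5% of all eligible windows.

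**Figure D2:**
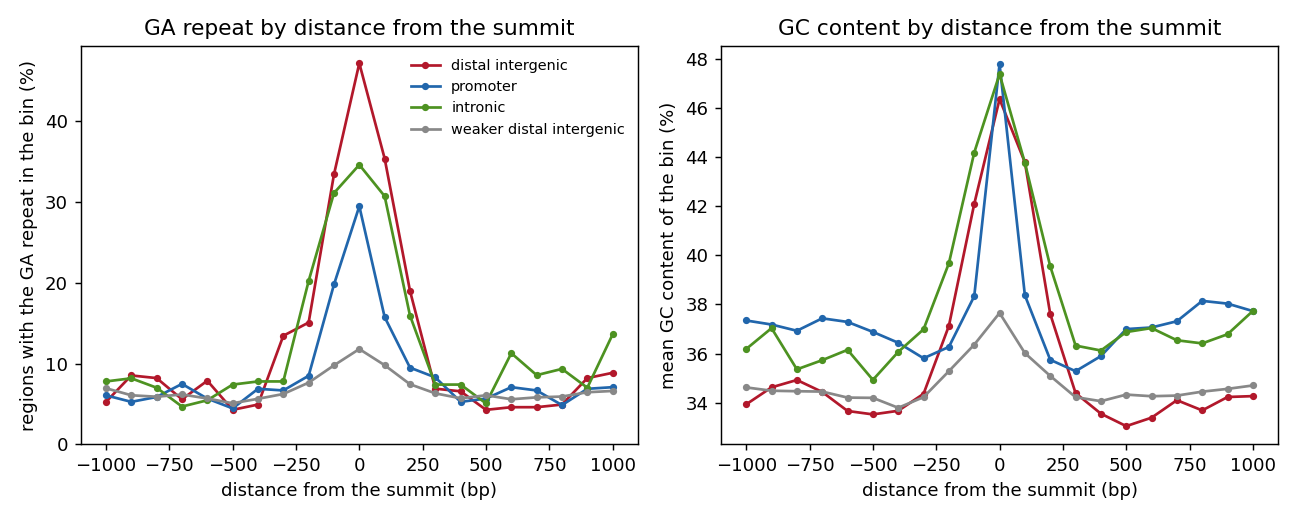
Left, the share of regions (%) with the GA repeat in 100-bp bins against distance from the summit (bp), for distal intergenic, promoter, intronic and weaker distal intergenic regions; right, the mean GC content (%) of the same bins. The distal intergenic line peaks at 47.2% at the summit and is at 6.56% at 400 bp downstream, and GC content peaks at the same place.

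Most runs were short. The longest alternating run had a median of 6 bases over members, was at least 10 bases in 54 members and at least 20 in 9. Runs were measured within 100 bp of the summit, so those of D054 and D053, which go on past that distance, count there in part. The longest of all, 63 bases, was in D206 on chromosome I, 3117 bp upstream of sptf-3, a Sp-family zinc finger gene, with a pooled signal of 21.8 and replicate signals of 3.12, 11.9 and 3.83. D291, with the longest of the printed runs by that measure, had a pooled signal of 19.1 and lay in no replicate's 1500 highest regions. D054 gave 14.8, 18.6 and 3.61 in replicates 1, 2 and 3 and ranked 160, 192 and 5348. D053 gave 2.94, 13.5 and 18.8 and ranked 19860, 552 and 144, so each was low in the list of 1 replicate and high in the others. GAGAGA was in 78.7% of the 61 highest members, 65.6%, 63.9% and 54.1% of the next sets of 61, and 52.5% of the 61 lowest. The region upstream of ogt-1, the highest of all, had no GAGAGA and a longest run of 5 bases.

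**Figure D3:**
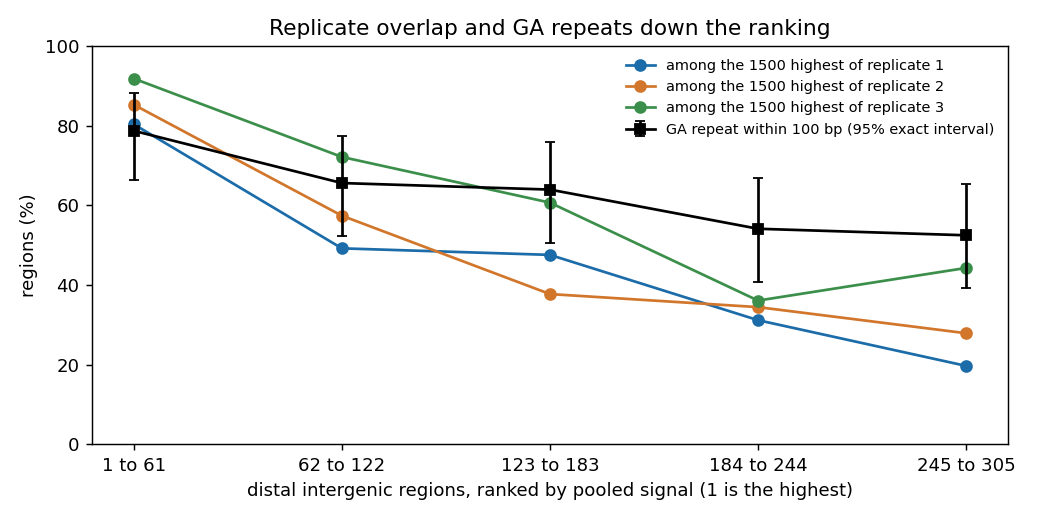
Share of members (%) in the 1500 highest regions of each replicate (coloured lines) and with the GA repeat within 100 bp of the summit (black, with exact binomial 95% intervals), in 5 sets of 61 members ordered by pooled signal. The repeat is in 78.7% of the highest set and 52.5% of the lowest, with intervals that overlap between neighbouring sets.

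For the other 4 motifs no difference from promoter or intronic regions passed the test within 100 bp of the summit, while with other windows WGATAR passed against promoters within 50 bp (10.6 points, adjusted Fisher's exact p = 0.00117) and TATAAA within 200 bp (-11.2 points, adjusted Fisher's exact p = 0.0035). The GATA motif WGATAR (W is A or T and R is A or G), bound by GATA factors, was in 113 members (37.0%), 28.7% of promoter and 40.9% of intronic regions (adjusted Fisher's exact p = 0.108 and 0.599; differences of 8.36 points, interval 1.70 to 15.1, and -3.81 points, interval -11.8 to 4.24). It was in 36.4% of all pooled regions, 36.9% of weaker distal intergenic ones and 35.4% of eligible windows, so members were close to the surrounding sequence. Within 50 bp of the summit WGATAR was in 23.9% of members and 13.3% of promoter regions. The neighbouring 100-bp bins held it in 23.3% and 20.7% of members and in 19.2% and 19.6% of promoter regions. Members were thus near their neighbouring bins, and promoter regions were below theirs. The E-box CACGTG, bound by basic helix-loop-helix proteins, was in 20 members (6.56%), against 4.27% of all pooled regions and 2.81% of windows. The GC box CCGCCC, bound by Sp and Krüppel-like factors, was in 34 (11.1%), against 4.68% and 3.35%. TATAAA was in 28 (9.18%), below the 17.5% of all pooled regions and the 22.98% of windows. Promoter and intronic regions held the E-box in 5.66% and 8.95%, the GC box in 14.1% and 10.5% and TATAAA in 11.7% and 10.5%. GC content was higher in members than in the windows, as given above, and its part in these shares was not tested. For these 3 motifs the adjusted Fisher's exact p against promoter and intronic regions ran from 0.568 to 0.961. A total of 48 members held none of the 5 motifs, and 65 held another motif but no GAGAGA.

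**Figure D4:**
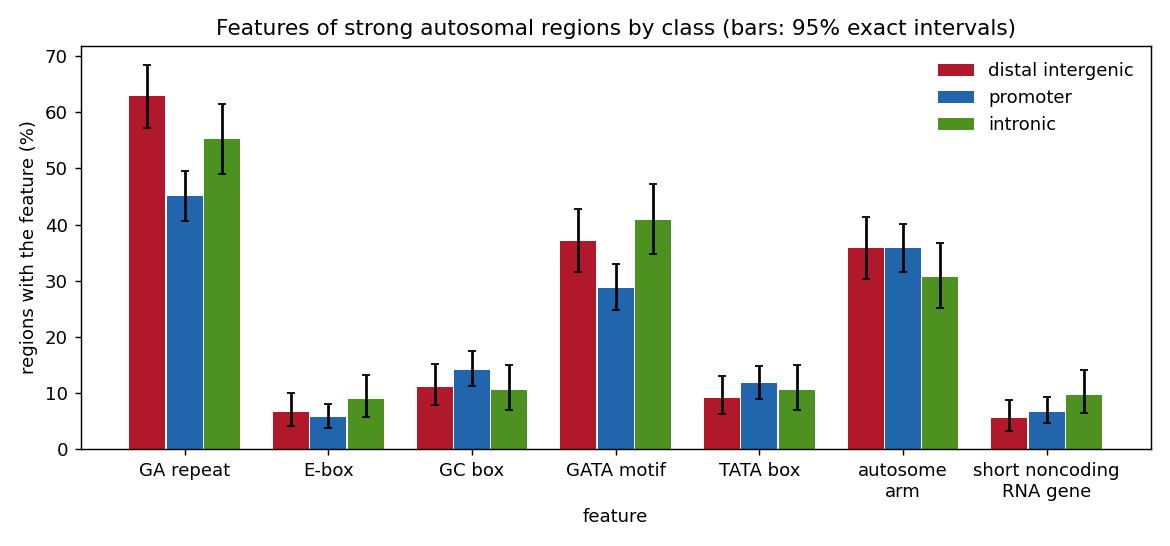
Share of strong autosomal regions (%) with each feature in the distal intergenic (305), promoter (495) and intronic (257) classes, with exact binomial 95% intervals; motifs were searched within 100 bp of the summit and short noncoding RNA genes within 500 bp. The GA repeat is the feature whose distal intergenic share, 62.95%, passed the test against promoter regions, at 45.1%.

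Most members lay on the upstream side of the nearest start, and few lay between converging genes. The nearest protein-coding start was 748 to 13361 bp away with a median of 2292 bp, and 264 members were within 5 kb of it. For 246 members (80.7%, 75.8 to 84.9) the summit was upstream of that start, against 70.6% of weaker distal intergenic regions and 65.4% of eligible windows. Gaps between genes pointing the same way held 176 members (57.7%) and gaps between diverging genes 107 (35.1%), where these make up 53.4% and 28.8% of the eligible sequence. Gaps between converging genes held 21 members (6.89%, 4.31 to 10.3), against 11.9% of weaker regions and 17.6% of eligible sequence. These shares are descriptions without a test. GAGAGA was in 68.2%, 57.0% and 52.4% of members in same-direction, diverging and converging gaps.

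**Figure D5:**
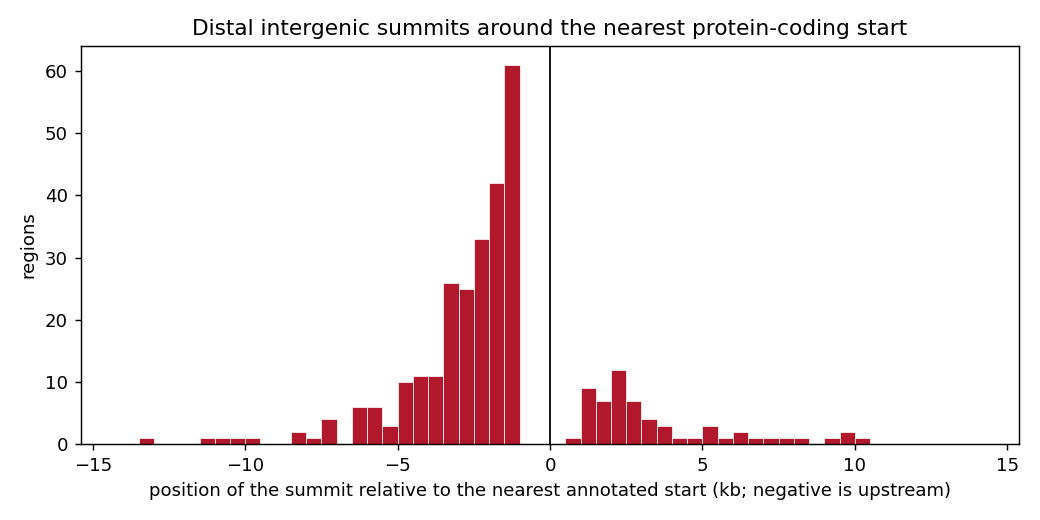
Number of distal intergenic regions by position of the summit relative to the nearest protein-coding start (kb, in bins of 0.5 kb; negative is upstream). The space next to 0 is empty because promoter windows and protein-coding gene bodies were left out, and 246 of 305 summits are upstream.

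Members were spread over all 5 autosomes. There were 50 on I, 60 on II, 53 on III, 76 on IV and 66 on V, or 17.7, 16.8, 18.97, 15.1 and 12.8 per Mb of eligible sequence. Chromosome V had the lowest density and the lowest share with GAGAGA, 48.5%, against 58.3% to 74% on the others. The arms, taken as 0.25 of an autosome's length from either end, contained 109 members (35.7%), the same share as in promoter regions (35.8%, adjusted Fisher's exact p = 1, interval of the difference -6.76 to 6.86 points) and 4.998 points from the 30.7% of intronic ones (interval -2.84 to 12.7, adjusted p = 0.568). Of the eligible sequence 53.6% was in arms, and of weaker distal intergenic regions 44.7%.

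Some gaps held several members. The most, 6, were in the gap of 35563 bp on chromosome IV between irld-18, a gene with receptor L domains, and dmd-6, which encodes a DM-domain protein of the Doublesex family. The highest of them, D013, lay 13361 bp from irld-18, with 58.3 pooled and 24.1, 17.1 and 18.2 in replicates 1, 2 and 3. The other 5 were nearer to dmd-6, at 2204 to 11318 bp, with pooled signals of 19.8 to 29.5. D100 of this group gave 15.5, 4.50 and 6.43 and ranked 126, 20552 and 1703, high in the list of replicate 1 alone. The gap of 7127 bp between lpin-1, which encodes lipin, and letm-1 on chromosome V held 4 members with signals of 20.4 to 27.8. Over all members there were 263 different gaps, counting a stretch between a gene and a chromosome end as a gap, and 274 different nearest genes.

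Genes of nuclear hormone receptors, ligand-regulated transcription factors with a large family in nematodes, were the nearest to 14 members (4.59%), against 2.08% of weaker distal intergenic regions and 1.93% of eligible windows. After D009 at nhr-88, the highest were D022 (48.3 pooled) 1379 bp upstream of nhr-10, D031 (42.2) at nhr-20 and D040 (39.5) at nhr-21. D022 gave 20.3, 7.15 and 25.2 in replicates 1, 2 and 3 and ranked 48, 6024 and 55, low in the list of replicate 2. D040 gave 9.16, 18.3 and 13.1. All 4 of these held GAGAGA, as did 8 of the 14. The repeat was in 62.95% of all members and in 78.7% of the 61 highest, where these 4 stood. Genes on a chosen list of 35 autosomal zinc finger regulators, without GATA and nuclear receptor genes, were nearest to 6 members (1.97%, against 0.972% and 0.447%). The list is not complete: sptf-3, the gene nearest to D206, is not on it. The highest of these members was D057 (36.2), 2822 bp upstream of the Krüppel-like gene klf-1, with 10.6, 12.5 and 11.9 in the replicates. The others named were ztf-27 (24.5), ztf-15 (20.7) and ztf-30 (20.2). D057 ranked 445, 693 and 435, and for ztf-30 a region was found in replicate 2 alone, at 13.5.

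Homeobox genes were nearest to 3 members: D182 at ceh-32 and D194 at unc-39, both of the sine oculis class, and D218 at ceh-43, the Distal-less gene, with 22.5, 22.01 and 21.2. Their share, 0.984%, was near the 1.25% of weaker regions. Single members lay nearest to the basic helix-loop-helix gene hif-1 (D056, 36.4), the target of the enzyme encoded by egl-9, and to the forkhead gene unc-130 (D255, 19.9). D056 gave 7.80, 9.26 and 15.7 in replicates 1, 2 and 3, each below the egl-9 member in the same list. GATA, T-box and Wnt pathway genes were nearest to 0 members, where weaker regions gave 0.218%, 0.178% and 0.456%, shares at which few or no members would be counted.

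Among signalling and timing genes, lin-41 was nearest to 2 members (0.656%, against 0.119% of weaker regions and 0.0789% of eligible windows). It is a heterochronic gene that keeps larval fates from maturing early and is silenced by the let-7 microRNA. These were all the members counted for the heterochronic list, by nearest protein-coding start. The microRNA genes on that list, such as mir-241, could not be counted in this way. D014 lay 1414 bp upstream of lin-41 with 57.3 pooled and 25.4, 18.7 and 14.3 in the replicates, and D245 at 1616 bp had 20.1 pooled. Their summits, at 9343910 and 9344112 on chromosome I, were in the same gap, so the share of this list comes from 1 locus. Insulin pathway genes were nearest to 3 (0.984%, against 0.317% and 0.403%): D003 and D064 (35.03), which overlap at ins-13, and D148 (24.4), 2292 bp upstream of the kinase gene akt-1. The body size gene lon-1 of the BMP-like pathway had D134 (25.3), a share of 0.328% against 0.198% and 0.0965%. The 3 members of hedgehog-related genes (0.984%, against 0.595% and 0.478%) were D095 (29.7) and D268 (19.5) at ptc-1, the Patched gene, and D107 (28.6) at ptr-13. These are counts of 1 to 3 members, and D014 and D003 had the highest pooled signals among them.

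Chemoreceptor genes, the largest family listed, were nearest to 5 members (1.64%), against 4.96% of weaker regions and 7.02% of eligible windows, the highest being D126 (26.1) at srab-24, D157 (24.1) at str-56, D195 (21.98) at srlf-26 and D260 (19.7) at str-166. F-box and MATH-BTB genes had 1 (0.328%, against 1.25% and 2.04%), D050 (37.2) at bath-44. C-type lectins had 1, D041 (39.3) at clec-91, against 0.932% and 0.901%, and neuropeptide genes 1, D155 (24.1) at nlp-40, against 0.892% and 0.964%. Cytoplasmic ribosomal protein genes, collagens and histones had 0, against 0.357%, 0.813% and 0% of weaker regions. The nearest start does not show which gene, if any, a region acts on.

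Noncoding genes overlapped some members. Of the 305, 42 (13.8%, 10.1 to 18.2) had their summit inside an annotated noncoding gene, against 13.8% of weaker regions and 15.1% of eligible windows. After D002 and D005, the highest were D016 (54.6 pooled; 13.8, 17.8 and 15.2 in the replicates) in F42C5.16 and D017 (50.2) in linc-91. D017, upstream of the chromatin remodeller gene chd-7, gave 23.01 and 30.3 in replicates 2 and 3 and had no region in replicate 1. Genes for snoRNA, tRNA, snRNA or rRNA lay within 500 bp of 17 members (5.57%), of which 12 were near snoRNA genes. Promoter regions had 6.67% and intronic regions 9.73% (adjusted Fisher's exact p = 0.781 and 0.266; intervals of the differences -4.37 to 2.59 and -8.87 to 0.246 points), and weaker distal intergenic regions 1.55%.

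MicroRNA genes lay within 1 kb of 7 members (2.30%, 0.928 to 4.67), against 0.912% of weaker distal intergenic regions and 0.648% of eligible windows, a description without a test. D049 (37.2) was near mir-53, with 9.18, 18.6 and 10.5 in replicates 1, 2 and 3, and D149 (24.4) and D215 (21.3) lay near mir-52. D097 (29.6), with 10.3, 10.03 and 11.96, had its summit inside mir-8209. D194 (22.01) was near mir-241, a relative of let-7, D292 (19.04) near the muscle microRNA gene mir-1, and D302 (18.8) near mir-79. D149, D292 and D302 had no region in replicate 1 and D215 had none in replicate 3, while D097 ranked 504, 1627 and 432.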

How the data were processed

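EGL-27 ChIP-seq region lists from 3 biological replicates, 1 group by the labels, were used on build ce11. The authors deposited, per the labels, relaxed lists per replicate (30000, 30000 and 13516 regions) and for all replicates together, and 1 IDR list of 524 regions. Aligner and caller were not given in the sources used here. Each deposited signal value is the authors' height of a region, on an unstated scale, and was used to rank regions within a list; replicate values are printed side by side, with ranks where replicates are compared, since a common scale is not stated. The deposited −log10 q-value was at the list's maximum in 134 members and was not used to rank. The deposited summit offset gave positions. Read depth is unknown because the lists give no counts; intervals cover only the counting of regions. The control and the ce10 lists were not analysed here.

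Genes were those of Ensembl release 115 (WBcel235, the same assembly as ce11; 0 regions passed a chromosome end) and bases those of RefSeq. Coordinates are 1-based. Shares of 7 features (5 motifs, arm, short noncoding RNA gene) were compared between classes with two-sided Fisher's exact tests, 14 in all, adjusted by Benjamini-Hochberg with a threshold of 0.05. Everything else is description. The scripts were tested on simulated data. Named regions were the 12 highest, those at the cut, the longest GA runs, up to 4 per gene list (19 lists by nearest start), those in noncoding or microRNA genes, the gaps with most members and the highest without replicate support. The members, lists and motifs were chosen with earlier results of these data known; the windows over eligible sequence were added after seeing the data. Tools were scipy 1.17.1, numpy 2.4.6, pandas 2.3.3 and, for plots, matplotlib 3.10.9, in Python 3.11.15.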

Additional observations from a re-analysis of the deposited data

How the results depend on the processing

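The GAGAGA difference from promoters kept its direction under all 14 alternatives and passed in 13, of which the midpoint and the wider short noncoding RNA distance left its values as they were. It did not pass among the members in the 1500 highest regions of both replicates 1 and 2 (adjusted Fisher's exact p = 0.586, with 67 members left). Requiring each pair of replicates in turn gave 15.4 to 24.0 points. These sets were drawn from the pooled regions, which were chosen with the reads of all 3 replicates. They therefore cannot show what the result would be without a replicate. The difference from introns kept its direction and passed with motif windows of 50 bp alone (12.6 points, adjusted Fisher's exact p = 0.0125). Requiring each pair of replicates gave 1.97 to 11.8 points. Of 7 features, 1 passed against promoters and 0 against introns. With windows of 50 bp these were 2 and 1, WGATAR also passing against promoters (10.6 points, adjusted Fisher's exact p = 0.00117). With 200 bp 2 passed against promoters, TATAAA being the other (-11.2 points, adjusted Fisher's exact p = 0.0035). Requiring each pair of replicates gave 0 to 1 against promoters and 0 throughout against introns. The number of members was 139 among the 750 highest regions, 628 among 3000, 104 in the IDR list and 195 with promoters of 2000 bp. It was 67 to 85 with each pair of replicates required. The cause of these changes was not tested. No paired analysis was possible because there was 1 group.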
